A study of Mus musculus with 6 samples.

Results

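The receptors of the epidermal growth factor (EGF) family and their ligands were followed in 3 whole kidneys with induced deletion of Pkd1 (Pkd1 KO) and 3 control kidneys. The 9 genes are a list of symbols, chosen by name and matched to the 56923 gene identifiers counted: the ligands Egf, Hbegf, Btc, Tgfa and Areg and the receptors Egfr, Erbb2, Erbb3 and Erbb4. All 6 kidneys came from male mice homozygous for floxed Pkd1 alleles and carrying Tet-O-Cre, a Cre recombinase gene under a tetracycline-responsive promoter. The Pkd1 KO mice also carried Pax8rtTA, an activator driven by the Pax8 promoter of tubule cells, so that doxycycline could switch Cre on in tubule cells, and the controls lacked it. Every mouse drank doxycycline at 2 mg/ml with 5% sucrose between postnatal days 28 and 42, for 14 days, and kidneys were examined at 10 weeks. Each library is 1 whole kidney, in which cells without Pax8 activity keep Pkd1. Pkd1 encodes polycystin-1, the protein most often altered in autosomal dominant polycystic kidney disease.

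EGF-like ligands are made as membrane-anchored precursors, which proteases on the cell surface cut free. A released ligand binds an ERBB receptor, receptors pair, and the pair phosphorylates itself and starts the RAS to ERK and PI3-kinase to AKT relays. Egf, Tgfa and Areg bind EGFR, while Hbegf and Btc bind both EGFR and ERBB4. ERBB2 has no known ligand and serves as a partner, and ERBB3 has a weak kinase and binds neuregulins. In the healthy kidney Egf is made mainly by the thick ascending limb and the distal convoluted tubule, from where it enters the urine. Epithelia lining cysts have long been studied for their response to EGFR ligands.

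What joins the ligands is a domain with 6 cysteines that fold into 3 loops and touch the receptor. Its coding sequence is shown for the 4 ligands below, from the first to the last cysteine, since the results divide ligands that share this domain. The bases are those of the longest open reading frame in the GENCODE M21 transcripts, 5′ to 3′, with the cysteine codons in capitals.
Egf: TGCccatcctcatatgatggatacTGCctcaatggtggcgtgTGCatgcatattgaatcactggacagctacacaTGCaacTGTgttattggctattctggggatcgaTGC
Tgfa: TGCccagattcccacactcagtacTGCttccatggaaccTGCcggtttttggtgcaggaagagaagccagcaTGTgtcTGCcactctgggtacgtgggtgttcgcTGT
Areg: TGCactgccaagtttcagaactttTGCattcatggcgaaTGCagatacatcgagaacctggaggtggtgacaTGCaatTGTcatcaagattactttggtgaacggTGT
Btc: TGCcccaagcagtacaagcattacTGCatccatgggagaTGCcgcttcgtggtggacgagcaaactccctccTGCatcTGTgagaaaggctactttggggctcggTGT
The domain spans 37 codons in Egf and 36 in the other ligands shown. The cysteines are parted by 7, 5, 10, 1 and 8 codons in Egf, and by 7, 4, 10, 1 and 8 codons in Tgfa, Areg and Btc. In Egf the domain sits at codons 982 to 1018 of 1217, near the end of a large precursor, whereas the Btc precursor has 177 codons in all.

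Gene counts per library were 51966474 to 62983791 in Pkd1 KO kidneys and 45020173 to 55548316 in control kidneys. A tag in the names of the deposited counts, taken here as the sequencing project, was 1 for all Pkd1 KO libraries and another for all control libraries. The sample labels give no batch, and genotype and tag cannot be told apart throughout. Kidney markers were present: of 12 lists of cell type markers, every gene was counted in every library except Avpr2, which was at 0 in control 1. Pkd1 itself had 8.77, 9.003 and 10.0 CPM (counts scaled to the same library size) in Pkd1 KO kidneys, against 30.0, 46.4 and 23.6 CPM in control kidneys, and its log2 fold change was −1.85 ± 0.24 (SE, adjusted p = 0.00234 by the quasi-likelihood test of edgeR). As classes, short and AT-rich genes were higher and long and GC-rich genes lower in Pkd1 KO kidneys, with a median log2 fold change of 0.65 in the shortest and −0.51 in the longest eighth of genes, and of 0.56 at the lowest and −0.60 at the highest GC content. Each member is therefore also given from a fit with offsets for GC content and length, in which Pkd1 stood at −0.49 (adjusted p = 0.0135), a call that ended without control 1, Pkd1 KO 2 or Pkd1 KO 3 (adjusted p 0.0525 to 0.066). Control 2 was the highest library for 7 of the members.

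Of the 8 members with enough reads to be tested, Btc rose and Egf, Tgfa, Egfr, Erbb2 and Erbb3 fell in Pkd1 KO kidneys at an adjusted p under 0.05. Hbegf and Erbb4 did not pass, and Areg was too low to test. Over the whole transcriptome 46.9% of 18273 genes were called, 22.7% higher and 24.2% lower, so a call by itself sets no member apart from the other genes, and 1 higher and 5 lower of 8 is read against those shares. The same 6 members had groups that did not overlap, as did 61.2% of the genes tested, 31.2% with Pkd1 KO higher and 30.0% with Pkd1 KO lower. Leaving out any 1 Pkd1 KO kidney left 3 members lower, and leaving out control 3 gave 6. With the offsets Btc rose and Egf, Tgfa and Erbb2 fell, against a background of 34.8% of genes called, 16.8% higher and 18.1% lower. The median log2 fold change of the 8 members was −0.94, and −0.60 with the offsets, against 0.03 and −0.01 over all genes tested.

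**Figure D1:**
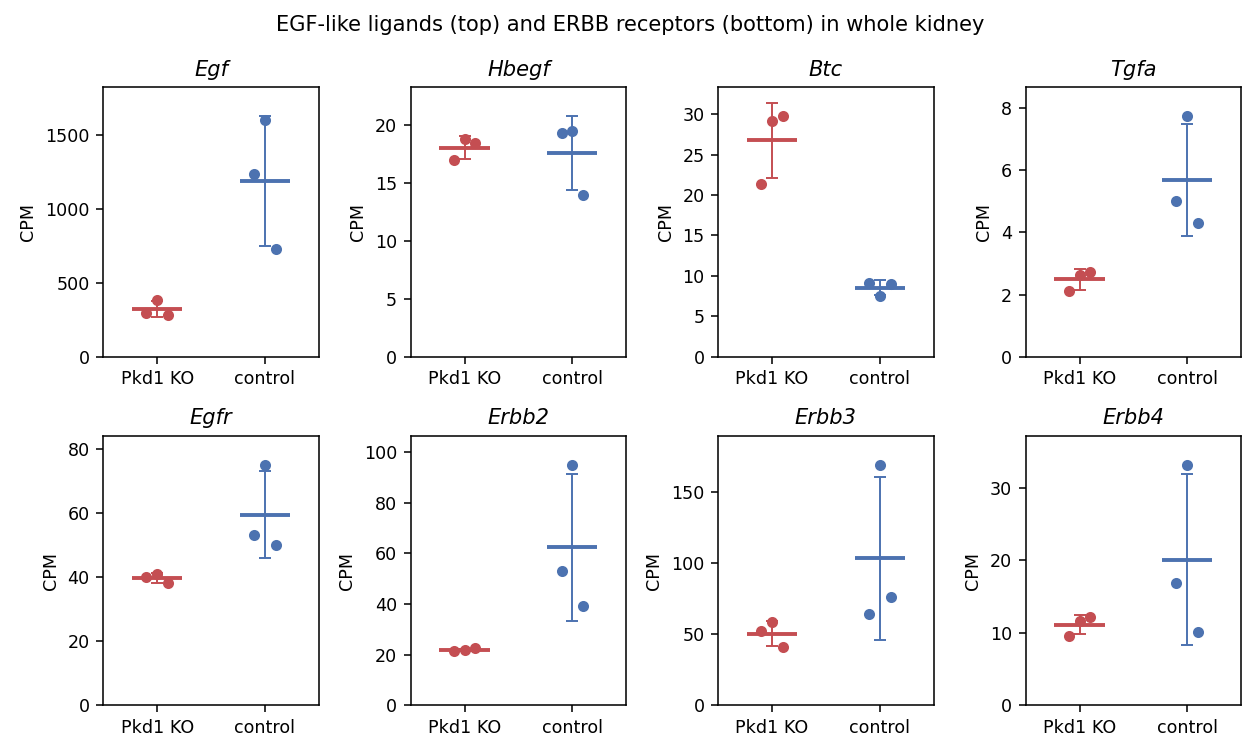
CPM, counts scaled to the same library size, of 4 ligands and 4 receptors, each panel with its own linear axis from 0. Points are single kidneys, thick lines group means and error bars SD, with 3 Pkd1 KO and 3 control kidneys. All Pkd1 KO points lie below all control points for Egf, Tgfa, Egfr, Erbb2 and Erbb3 and above them for Btc, and the groups overlap for Hbegf and Erbb4.

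Egf, the ligand that names the family, was the most abundant member by counts and had the lowest log2 fold change of the 8 in both fits. Egf (ENSMUSG00000028017, chromosome 3) had 296, 381 and 284 CPM in Pkd1 KO kidneys, against 1236, 1599 and 729 CPM in control kidneys. The highest Pkd1 KO kidney stood below the lowest control. The means were 320 ± 53 CPM in Pkd1 KO kidneys and 1188 ± 437 CPM in control kidneys (SD, n = 3 each). This was a log2 fold change of −1.89 ± 0.28 (SE, 95% interval −2.53 to −1.25, adjusted p = 0.0026 in edgeR's test), or 3.71-fold lower. With the GC and length offsets the log2 fold change was −1.12 ± 0.18 (adjusted p = 0.00306). Of the exonic bases of Egf, 607 also lie in the antisense gene Gm42697 and 500 in the antisense gene 6330410L21Rik. Reads not given to a single gene were left out, so Egf may be undercounted over these bases.

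Egf was set against the markers of the segments that make it. The summed markers of the thick ascending limb, among them Umod (uromodulin) and Slc12a1 (the loop's sodium, potassium and chloride transporter), stood at 1675 to 2174 CPM in Pkd1 KO kidneys and 3506 to 4528 CPM in control kidneys. Those of the distal convoluted tubule, among them Slc12a3 (the thiazide-sensitive transporter), stood at 249 to 265 CPM in Pkd1 KO kidneys and 569 to 1032 CPM in control kidneys. Each sum lay lower in every Pkd1 KO kidney, but not each marker did. Of the 6 thick ascending limb markers Umod, Slc12a1 and Ptger3 fell, and Kcnj1 (0.17) and Cldn16 (0.13) had log2 fold changes above 0 that did not pass, with overlapping groups. Of the 4 distal convoluted tubule markers 3 fell, Slc12a3 made up 192 of the mean sum of 257 CPM in Pkd1 KO kidneys, and Pvalb stood at 0.10 with overlapping groups. With the offsets Kcnj1, Cldn16 and Pvalb stood at −0.25, −0.52 and −0.57, and Cldn16 and Pvalb were called lower (adjusted p = 0.0135 and 0.0219). Others moved towards 0: Slc12a3 from −1.81 to −0.76, Cldn19 from −0.42 to −0.03 and Emx1 from −0.68 to −0.03, where its call ended (adjusted p = 0.836). In that fit 4 of 6 thick ascending limb and 3 of 4 distal convoluted tubule markers fell, as did 18.1% of all genes. In whole kidneys fewer cells of a type and less RNA per cell cannot be told apart.

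The ratio of Egf to those markers within each library does not depend on library scaling, but it carries no offset for GC content and length. In the offset fit Egf stood at −1.12, against −1.32 for Umod, −1.25 for Slc12a1, −0.25 for Kcnj1 and −0.76 for Slc12a3. The other markers ran from −0.69 (Trpm6) to −0.03 (Cldn19 and Emx1), so only Umod and Slc12a1 stood below Egf. These 2 gave 1008 and 551 of the mean thick ascending limb sum of 2000 CPM in Pkd1 KO kidneys. A ratio with the offsets was not computed. The log2 ratio of Egf reads to the summed reads of both marker lists was −3.02, −2.34 and −3.10 in Pkd1 KO kidneys, against −2.08, −1.70 and −2.48 in control kidneys. The groups overlapped, since Pkd1 KO 2 lay above control 3. The difference of the means was −0.73 (exact 2-sided permutation test, p = 0.2, where 3 against 3 cannot go below 0.1), which this design could not tell from the spread between kidneys. It was −0.81 against the thick ascending limb markers and −0.30 against the distal convoluted tubule markers, both with p = 0.2 in the same exact test. Against the geometric mean of the markers, which lets rare markers weigh as much as abundant ones, it was −1.20 and the groups did not overlap (exact p = 0.1, the smallest possible).

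**Figure D2:**
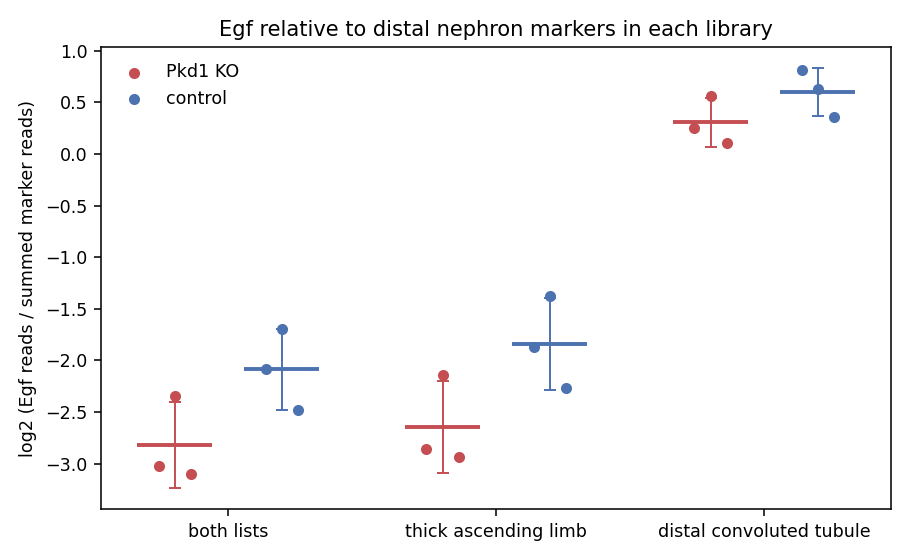
Log2 of Egf reads over the summed reads of cell type markers in each kidney, for both marker lists together and for each alone. Points are kidneys, thick lines means and error bars SD (n = 3 each), with Pkd1 KO left of control. The ratios carry no offset for GC content and length. The highest Pkd1 KO point, −2.34 over both lists, lies above the lowest control point, −2.48.

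Btc was the member that rose. It encodes betacellulin, a ligand of EGFR and ERBB4. Btc (ENSMUSG00000082361, chromosome 5) had 21.4, 29.1 and 29.8 CPM in Pkd1 KO kidneys, against 9.13, 7.47 and 8.998 CPM in control kidneys. Every Pkd1 KO kidney exceeded every control by more than the range within the controls. The log2 fold change was 1.65 ± 0.18 (SE, 95% interval 1.25 to 2.05, adjusted p = 0.002 in edgeR's test), or 3.14-fold higher. Btc has 37.7% GC, and with the offsets its log2 fold change was 0.86 ± 0.15 (adjusted p = 0.00368). Marker sums that were also higher in Pkd1 KO kidneys were those of injured tubule (28.9 to 103 CPM in Pkd1 KO and 3.36 to 12.2 CPM in control kidneys), macrophage (130 to 234 CPM in Pkd1 KO and 30.9 to 57.9 CPM in control kidneys) and adipocyte (162 to 238 CPM in Pkd1 KO and 41.6 to 96.8 CPM in control kidneys), and their part in the Btc value was not tested. Of the markers, 3 of 4 for injured tubule, 3 of 6 for macrophage and 3 of 4 for adipocyte rose, and 3, 2 and 1 with the offsets. Lyz2 alone gave 150 of the mean macrophage sum of 189 CPM in Pkd1 KO kidneys, and Adgre1, Cd68 and Itgam did not pass (adjusted p = 0.407, 0.398 and 0.0786) and overlapped between the groups. Fabp4 gave 160 of the mean adipocyte sum of 191 CPM in Pkd1 KO kidneys, and it alone of these markers did not overlap. Adipoq, Plin1 and Cfd overlapped between the groups.

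Tgfa encodes transforming growth factor alpha, which binds EGFR alone. Tgfa (ENSMUSG00000029999, chromosome 6) had 2.10, 2.64 and 2.73 CPM in Pkd1 KO kidneys, against 5.01, 7.75 and 4.31 CPM in control kidneys. It was a rare transcript and the groups did not overlap. It had a log2 fold change of −1.19 ± 0.26 (SE, adjusted p = 0.00641 in edgeR's test), and −0.72 with the offsets (adjusted p = 0.0246). With the offsets its call ended when any Pkd1 KO kidney or control 2 was left out (adjusted p 0.0579 to 0.0891).

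Hbegf encodes heparin-binding EGF-like growth factor, a ligand of EGFR and ERBB4 that tubule cells are known to make after injury. Hbegf (ENSMUSG00000024486, chromosome 18) had 16.9, 18.8 and 18.4 CPM in Pkd1 KO kidneys, against 19.3, 19.5 and 13.9 CPM in control kidneys. The Pkd1 KO kidneys all lay inside the range of the controls. Its log2 fold change was 0.04 ± 0.17 (SE, adjusted p = 0.869 in edgeR's test). The 95% interval of this fit, −0.34 to 0.42, leaves room for a level from 0.79-fold to 1.33-fold of control. With the offsets the log2 fold change was 0.33 (95% interval 0.02 to 0.63, adjusted p = 0.092), an interval that reaches further upwards. In the fit without offsets it turned to −0.15 without control 3 (adjusted p = 0.357).

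Areg encodes amphiregulin, another ligand of EGFR alone. Areg (ENSMUSG00000029378, chromosome 5) had 4, 10 and 5 reads in Pkd1 KO kidneys, against 0, 0 and 7 reads in control kidneys. A count of 0 allows up to 3 reads, which is 0.0583 CPM in control 1 and 0.0519 CPM in control 2. A difference was not detectable at this depth.

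Per length, Egf made up most of the ligand transcripts in both groups, and a smaller share of them in Pkd1 KO kidneys. Levels between genes are compared in TPM, in which counts are divided by exon length and scaled to the same total in every library. In Pkd1 KO kidneys the mean levels were 66.3 ± 9.0 TPM for Egf, 13.9 ± 2.8 for Btc, 8.74 ± 0.70 for Hbegf, 0.901 ± 0.151 for Tgfa and 0.206 ± 0.086 for Areg (SD, n = 3). In control kidneys they were 309 ± 140 TPM for Egf, 10.5 ± 2.8 for Hbegf, 5.37 ± 0.37 for Btc, 2.56 ± 1.06 for Tgfa and 0.111 ± 0.192 for Areg (SD, n = 3). After Egf, Btc thus stood above Hbegf in Pkd1 KO kidneys and below it in control kidneys, and the values of these 2 genes did not overlap within either group. TPM carries no offset for GC content and length. In log2 fold change Btc and Hbegf stood at 1.65 and 0.04 without the offsets and at 0.86 and 0.33 with them. Whether their order would switch with the offsets was not tested.

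The share of Egf among the reads per exonic base of the 5 ligands was 75.3%, 75.7% and 69.8% in Pkd1 KO kidneys, against 94.2%, 95.4% and 91.9% in control kidneys. The difference was −20.2 percentage points with no overlap (exact 2-sided permutation test, p = 0.1, the smallest that 3 against 3 allows). It was −10.2 points when counts were not divided by length and −13.0 points with the longest transcript as length. None of these shares carries an offset for GC content and length. In the offset fit the log2 fold change of Egf moved from −1.89 to −1.12 and that of Btc from 1.65 to 0.86. Btc took 13.6%, 14.4% and 18.3% in Pkd1 KO kidneys, against 1.74%, 1.11% and 2.83% in control kidneys. Hbegf took 10.0%, 8.70% and 10.6% in Pkd1 KO kidneys, against 3.43%, 2.71% and 4.09% in control kidneys, although its own level overlapped between the groups. The 4 ligands other than Egf summed to 23.8 ± 3.6 TPM in Pkd1 KO kidneys and 18.6 ± 3.6 TPM in control kidneys (SD, n = 3 each), and single kidneys of the groups overlapped.

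**Figure D3:**
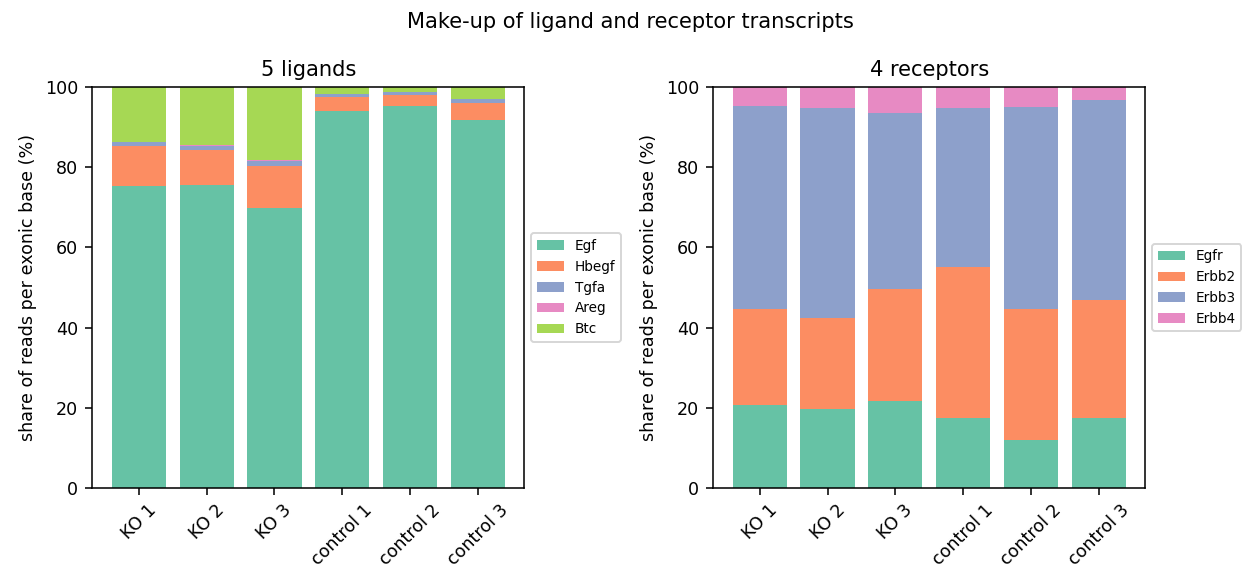
Stacked shares (%) of reads per exonic base in each of the 6 kidneys, Pkd1 KO left of control, among the 5 ligands in the left panel and the 4 receptors in the right panel. Egf fills 69.8% to 75.7% of the ligand bar in Pkd1 KO kidneys and 91.9% to 95.4% in control kidneys. The shares carry no offset for GC content and length.

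Among the receptors Erbb2, the partner of the other receptors, had the lowest log2 fold change without the offsets, and Erbb4 with them. Erbb2 (ENSMUSG00000062312, chromosome 11) had 21.4, 21.9 and 22.4 CPM in Pkd1 KO kidneys, against 52.8, 94.9 and 39.2 CPM in control kidneys. The Pkd1 KO kidneys were nearly alike while the controls spread widely, with control 2 the highest. The log2 fold change was −1.51 ± 0.29 (SE, 95% interval −2.16 to −0.86, adjusted p = 0.00431 in edgeR's test), or 2.85-fold lower, and −1.11 without control 2. With the offsets it was −0.62 (adjusted p = 0.0271), and that call ended when any Pkd1 KO kidney was left out (adjusted p 0.0785 to 0.0907). Without control 2 the value with offsets was −0.36 (adjusted p = 0.023).

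Egfr encodes the receptor that all 5 ligands bind. Egfr (ENSMUSG00000020122, chromosome 11) had 39.9, 41.0 and 38.0 CPM in Pkd1 KO kidneys, against 53.2, 75.0 and 50.1 CPM in control kidneys. The groups did not overlap, and the step between them was smaller than for Erbb2. The log2 fold change was −0.58 ± 0.17 (SE, adjusted p = 0.0224 in edgeR's test). The call ended with the offsets (−0.26, adjusted p = 0.0957), with upper-quartile scaling (−0.42, adjusted p = 0.0589) and when any Pkd1 KO kidney was left out (adjusted p 0.0713 to 0.0871).

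Erbb3 encodes the neuregulin receptor with little kinase activity of its own. Erbb3 (ENSMUSG00000018166, chromosome 10) had 52.2, 58.2 and 40.7 CPM in Pkd1 KO kidneys, against 64.3, 169 and 76.1 CPM in control kidneys. The groups did not overlap, and control 2 stood far above the other controls. The fit gave a log2 fold change of −1.03 ± 0.34 (SE, adjusted p = 0.033 in edgeR's test) and −0.51 without control 2 (adjusted p = 0.020). The call ended with the offsets (−0.58, adjusted p = 0.140, and −0.14 with control 2 also left out), with upper-quartile scaling (−0.86, adjusted p = 0.0556) and when any Pkd1 KO kidney was left out (adjusted p 0.071 to 0.1098).

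Erbb4 encodes a neuregulin receptor that also binds Btc and Hbegf. Erbb4 (ENSMUSG00000062209, chromosome 1) had 9.62, 11.6 and 12.2 CPM in Pkd1 KO kidneys, against 16.9, 33.2 and 10.2 CPM in control kidneys. Control 3 lay within the range of the Pkd1 KO kidneys. The log2 fold change of −0.85 ± 0.36 (SE) did not pass (adjusted p = 0.0817 in edgeR's test). It passed without control 3 (−1.22, adjusted p = 0.00287) and in DESeq2's test (−0.89, adjusted p = 0.030), stood at −0.32 without control 2 (adjusted p = 0.246), and with the offsets was −0.81 (adjusted p = 0.0649, or 0.0489 where the offsets came from a least-squares loess).

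**Figure D4:**
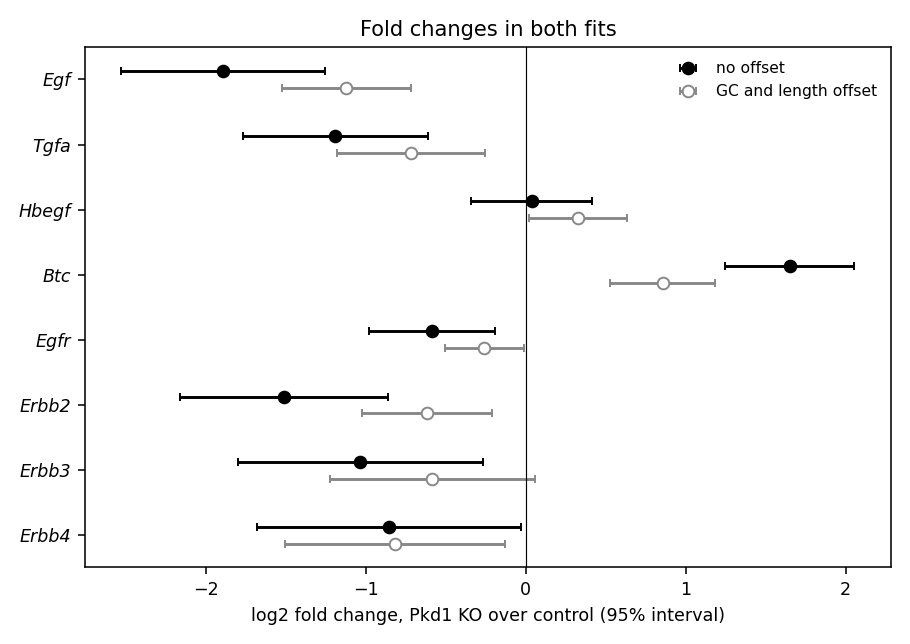
Log2 fold change of Pkd1 KO over control for 8 members, with 95% intervals, from edgeR's test without offsets (filled black) and with offsets for GC content and length (open grey). Egf lies at −1.89 and −1.12 and Btc at 1.65 and 0.86, on opposite sides of 0 in both fits, while Hbegf lies at 0.04 and 0.33.

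By length-scaled level Erbb3 was the most abundant receptor transcript and Erbb4 the least abundant in each of the 6 kidneys. In Pkd1 KO kidneys the levels were 19.5 ± 2.6 TPM for Erbb3, 9.84 ± 0.69 for Erbb2, 8.18 ± 0.12 for Egfr and 2.11 ± 0.33 for Erbb4 (SD, n = 3). In control kidneys they were 50.5 ± 32.7 TPM for Erbb3, 35.2 ± 19.7 for Erbb2, 15.2 ± 5.0 for Egfr and 4.83 ± 3.25 for Erbb4 (SD, n = 3). In control kidneys the means of Erbb3 and Erbb2 lay within each other's SD.

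Egfr took 20.6%, 19.7% and 21.8% of the receptor reads per exonic base in Pkd1 KO kidneys, against 17.5%, 11.9% and 17.4% in control kidneys. The difference of 5.09 percentage points had an exact 2-sided permutation p of 0.1, the smallest possible, with no overlap, and was 3.25 points without control 2. Erbb2 took 24.01%, 22.8% and 27.9% in Pkd1 KO kidneys, against 37.7%, 32.8% and 29.6% in control kidneys. These shares carry no offset for GC content and length. In the offset fit the log2 fold changes were −0.26 for Egfr and −0.62 for Erbb2, against −0.58 and −1.51 without the offsets. The 4 receptors summed to 39.6 ± 1.9 TPM in Pkd1 KO kidneys and 106 ± 60 TPM in control kidneys (SD, n = 3 each).

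The promoters of Egf, Btc and Erbb2 are shown since they are the ligand that fell, the ligand that rose and the receptor that fell with the lowest adjusted p in each class. Each window runs from 250 bases before to 50 bases after the gene's start in the RefSeq annotation of GRCm38.p6, read 5′ to 3′ on the gene's strand, with any CCAAT in capitals. For Egf the window is that of the upstream of its 2 starts, chr3:129755273-129755572 on the minus strand, for Btc chr5:91402945-91403244 on the minus strand, and for Erbb2 chr11:98412234-98412533 on the plus strand.
Egf: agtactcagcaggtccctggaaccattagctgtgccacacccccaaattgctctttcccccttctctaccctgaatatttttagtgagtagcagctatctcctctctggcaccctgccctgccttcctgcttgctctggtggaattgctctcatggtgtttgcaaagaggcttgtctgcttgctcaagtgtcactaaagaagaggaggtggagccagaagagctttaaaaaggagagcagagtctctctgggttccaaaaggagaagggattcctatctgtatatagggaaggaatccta
Btc: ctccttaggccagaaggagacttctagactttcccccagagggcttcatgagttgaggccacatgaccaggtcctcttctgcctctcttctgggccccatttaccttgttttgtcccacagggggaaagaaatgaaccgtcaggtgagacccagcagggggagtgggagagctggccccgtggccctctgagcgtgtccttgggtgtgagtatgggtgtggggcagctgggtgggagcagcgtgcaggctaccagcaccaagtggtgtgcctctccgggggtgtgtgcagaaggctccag
Erbb2: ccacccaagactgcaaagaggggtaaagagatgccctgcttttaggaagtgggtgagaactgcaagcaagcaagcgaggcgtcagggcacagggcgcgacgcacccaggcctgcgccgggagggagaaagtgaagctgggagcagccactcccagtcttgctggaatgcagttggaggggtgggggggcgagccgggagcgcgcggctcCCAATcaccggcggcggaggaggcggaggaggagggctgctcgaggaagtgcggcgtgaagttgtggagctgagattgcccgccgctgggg
The windows held 49.0% GC for Egf, 60.3% for Btc and 66.0% for Erbb2. The motifs searched, on both strands, were TATAAA (the TATA box), CCAAT (the CAAT box), GGGCGG (the GC box), TGANTCA (the AP-1 site), TGACGTCA (the cyclic AMP response element) and CACGTG (the E-box), of which the Egf and Btc windows held none. The Erbb2 window held 1 CCAAT, which starts at position −41 and which 37.4% of 32851 promoter windows also hold. RefSeq windows of 7 of the 9 members were searched. Among the others, the Areg window held TATAAA at −31, found in 13.6% of windows, and TGACGTCA at −61, found in 1.79%.

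The other genes of the pathway were counted in 5 lists. Of 6 further EGF-like ligands 3 were tested and 0 passed in edgeR's test, with 0 at an unadjusted p under 0.05 and 0 in DESeq2's test. Without a filter on low counts 1 passed, Ereg, and without control 3 there were 2, Ereg and Nrg4. Ereg was near the counting floor, with 4, 15 and 12 reads in Pkd1 KO kidneys, against 0, 0 and 3 reads in control kidneys. Control 3 held its only control reads. The most abundant was the neuregulin Nrg1, a ligand of ERBB3 and ERBB4, with 17.2 ± 1.9 CPM in Pkd1 KO kidneys and 20.3 ± 4.6 CPM in control kidneys (SD, n = 3 each). Of the 9 genes that release ligands or limit their release, 1 rose and 4 fell, where 22.7% of all genes tested rose and 24.2% fell. Rhbdl2, a membrane protease that can cut Egf, rose by 1.32 ± 0.25 (log2 fold change ± SE, adjusted p = 0.00442), and Frmd8, which steadies the sheddase complex, stood at −1.02 ± 0.16 (adjusted p = 0.0028) and lost its call with the offsets (−0.31, adjusted p = 0.177). Rhbdf2, which carries the sheddase ADAM17 to the surface, stood at −0.83 ± 0.28 (adjusted p = 0.0346) and turned to 0.15 with the offsets. With the offsets Rhbdl2 rose (1.17, adjusted p = 0.00716) and the metalloproteases Adam9 (−0.65, adjusted p = 0.0078) and Adam10 (−0.76, adjusted p = 0.00567) fell, where 16.8% of all genes rose and 18.1% fell. The number that fell was 2 without control 1 or any 1 Pkd1 KO kidney and 6 without control 3.

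Of 24 genes of the relay from receptor to ERK and AKT, 2 rose and 16 fell, where 22.7% of all genes tested rose and 24.2% fell. With the offsets 4 rose and 9 fell, where 16.8% of all genes rose and 18.1% fell. The genes were in part others: Akt1, a kinase of the PI3-kinase relay, fell without the offsets (−0.41, adjusted p = 0.0376) and rose with them (0.40, adjusted p = 0.024), and Shc1, an adaptor, stood at −0.12 without them (adjusted p = 0.479) and rose with them (0.43, adjusted p = 0.0277). Nras, a RAS protein, rose by 0.39 ± 0.13 (log2 fold change ± SE, adjusted p = 0.0323), and it stood at 0.05 with the offsets. The furthest falls were those of Gab2, a docking protein, at −1.24 ± 0.17 (adjusted p = 0.00246), and Src, a tyrosine kinase, at −1.15 ± 0.22 (adjusted p = 0.00429). With the offsets Gab2 kept its call at −0.79 (adjusted p = 0.003) and Src did not (−0.28, adjusted p = 0.116). Without Pkd1 KO 2, 0 relay genes rose and 9 fell, without control 1, Pkd1 KO 1 or Pkd1 KO 3 the number that rose was 1, and without Pkd1 KO 1 or 3 the number that fell was 11.

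Of 14 inhibitors of the receptors or the relay, 8 fell and 0 rose in edgeR's test, where 24.2% of all genes tested fell and 22.7% rose. At an unadjusted p under 0.05, 0 were higher, and 0 in DESeq2's test. With the offsets 4 fell and 1, Lrig2, rose, where 18.1% of all genes fell and 16.8% rose. Lrig3, a membrane protein of the LRIG family, had 3.38 ± 0.27 CPM in Pkd1 KO kidneys and 10.6 ± 4.6 CPM in control kidneys (SD, n = 3 each), giving −1.65 ± 0.29 on the log2 scale (adjusted p = 0.00333), and −0.81 with the offsets (adjusted p = 0.00966). Cbl, the ubiquitin ligase that marks EGFR for breakdown, stood at −1.21 ± 0.30 (adjusted p = 0.0107), and at −0.58 with the offsets (adjusted p = 0.032). Without Pkd1 KO 2, 5 inhibitors fell. Of 13 genes that ERK signalling is known to induce 12 were tested. Of these 1 rose and 2 fell, where 22.7% of all genes tested rose and 24.2% fell. Myc, a growth regulator, rose by 0.48 ± 0.17 (adjusted p = 0.0447), Dusp4, a phosphatase of ERK, stood at −1.03 ± 0.28 (adjusted p = 0.0168), and Epha4, an ephrin receptor, at −0.53 ± 0.17 (adjusted p = 0.0296). With the offsets Myc rose and Dusp4 and Ier3, an immediate early gene (−1.23, adjusted p = 0.0162), fell, while Epha4 lost its call (−0.35, adjusted p = 0.106). The 1 that rose lost its call without any 1 kidney but control 3, and the number that fell was 0 without Pkd1 KO 2, 1 without control 1, Pkd1 KO 1 or Pkd1 KO 3, and 6 without control 3. The medians were −0.24 for the further ligands, −0.47 for shedding, −0.56 for the relay, −0.56 for the inhibitors and −0.28 for the ERK response genes, against 0.03 over all genes tested. With the offsets they were 0.32, 0.12, −0.19, −0.28 and 0.10 in the same order, against −0.01 over all genes, so that 3 of the 5 turned sign. For the further ligands the median of 3 tested genes is the value of 1 gene. This was Nrg1 without the offsets and Nrg2, with 7 to 29 reads per library, with them (adjusted p = 0.699 in edgeR's test). Nrg1 itself stood at −0.14 with the offsets.

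**Figure D5:**
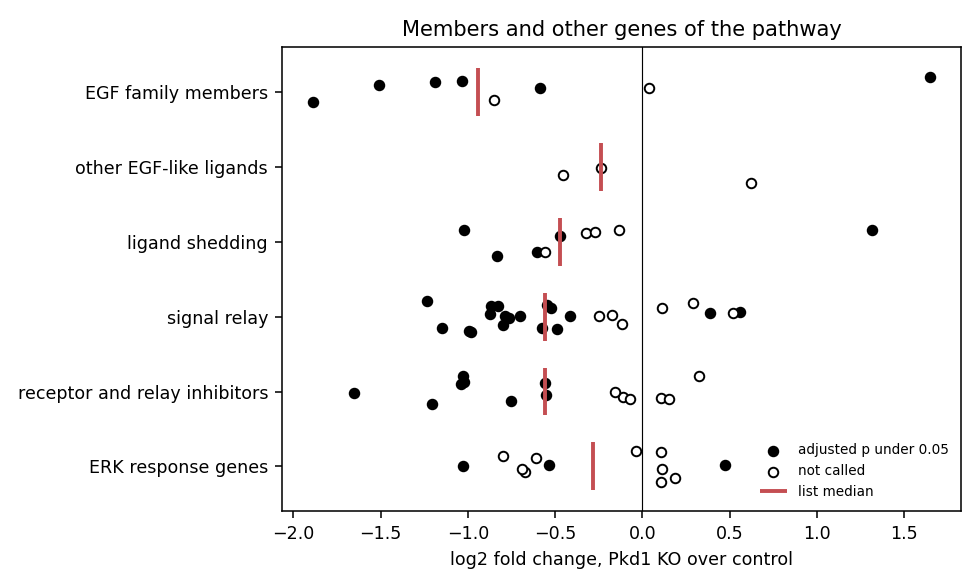
Log2 fold change of Pkd1 KO over control for the tested members and for the tested genes of 5 lists of the same pathway, 1 point a gene, spread vertically for legibility. Filled points passed an adjusted p of 0.05 in edgeR's test, open points did not, and red bars are list medians, which run from −0.94 for the members to −0.24 for the further ligands. With offsets for GC content and length, which are not drawn, the medians of 3 lists were above 0, at 0.32 for the further ligands, 0.12 for shedding and 0.10 for the ERK response genes. The further ligands are 3 tested genes, so their median is the value of 1 gene, Nrg1 as drawn and the rare Nrg2 with the offsets.

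The genes whose pattern over the 6 libraries was most like that of a member were taken from 11088 protein-coding genes, by the root mean square distance of log2 CPM after centring each gene on its mean. For Egf they were Adcy5 (0.119), Zfhx2 (0.120) and Gaa (0.122). For Egfr they were Rbm33, Dennd4c and Pias3, at 0.0374 to 0.0387, and for Erbb4 Pag1, Cspg4 and Ankrd26, at 0.0825 to 0.096. For Hbegf they were Ano9, Sectm1b and Gpt2, at 0.0609 to 0.0674.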

How the data were processed

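RNA was measured in 6 whole mouse kidneys; per the labels' protocols poly-A RNA was purified and copied with random primers. The authors deposited unnormalized read counts for each gene, and the submitters' processing notes name FastQC 0.11.8, cutadapt 4.0, STAR 2.6.1e and the build GRCm39. The column that ignores strand was used. Reads that named no gene were 25.3% to 26.3% in Pkd1 KO and 22.9% to 23.8% in control libraries and were left out. Both runs of control 1 were summed. Nothing says that the kidneys are from separate animals, so p-values measure the spread between these samples.

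Symbols, exon lengths and GC content came from GENCODE M21, joined by identifier (52073 of 56923), and promoters from RefSeq (GRCm38.p6), both of an older build than the counts. Genes were tested by quasi-likelihood in edgeR 4.0.16 (R 4.3.3) with filterByExpr, TMM and Benjamini-Hochberg adjustment over all genes at 0.05, checked on simulated counts. The common biological coefficient of variation was 21.4%. SE is the absolute log2 fold change over the root of the F statistic. CPM uses TMM library sizes. The offset fit added, for each library, a robust loess (span 0.3) of log2 CPM, relative to the mean over libraries (prior count 2), on GC content and log2 exon length, over 17785 genes; it would also remove a true change shared by long or GC-rich genes. The robust form replaced least squares after the values of both had been seen, and both are reported. Ratios and shares within a library used exact permutation tests, and like TPM they carry no offset.

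The named genes are all 9 members, Pkd1, in each pathway list up to 2 called genes with the largest change in each direction with a mean log2 CPM of 0 or more, or, in a list without calls, the most abundant gene, and the 3 nearest patterns of Egf, Egfr, Erbb4 and Hbegf (mean log2 CPM of at least 2). The result of 1 gene that this rule took is not reported here. Ereg, Nrg2, Nrg4, Lrig2, Adam9, Adam10, Akt1, Shc1, Ier3 and single markers were named after their values were seen. The members, pathway lists and 12 marker lists were chosen with earlier results of these data known.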

Additional observations from a re-analysis of the deposited data

How the results depend on the processing

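Beside the values reported, 14 alternative settings and 7 more added after seeing the data were run on the members. Egf and Btc kept their direction and call in all 21, Tgfa and Erbb2 lost it in 4 and 3 fits with offsets and 1 kidney left out, and Egfr and Erbb3 lost it in 13 each. Erbb4 passed in 5, among them the offset fit with least-squares loess (adjusted p = 0.0489). Hbegf turned to −0.15 without control 3 and stood at up to 0.083 without another kidney. Rhbdf2 turned to 0.15 with the GC and length offset, to 0.17 with the replicate block and offset together, and to 0.12 with least-squares loess, where Nras turned to −0.0017. The causes were not tested.

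Upper-quartile scaling shifted the all-gene median to 0.19 (log2) and made 60.5% of calls higher, against 48.4% as reported. It gave 3 members lower, 2 shedding genes lower, 4 relay genes higher, 1 inhibitor higher and 1 ERK response gene lower. The GC and length offset gave 3 members lower, 2 shedding genes lower, 4 relay genes higher and 9 lower, and 1 inhibitor higher and 4 lower. Least-squares loess gave 2 shedding genes lower, 4 relay genes higher and 10 lower, and 1 inhibitor higher and 4 lower. ERK response genes called higher were 0 with DESeq2 size factors, in DESeq2's test, without a filter and with the replicate block with or without offset, and 4 were lower in DESeq2's test and 5 without a filter, where 1 further ligand was higher. Egf moved to −1.20 against the geometric mean of its markers and to −0.30 against distal convoluted tubule markers, and its ligand share to −10.2 and −13.0 points with other lengths.

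Same-numbered kidneys did not deviate together (correlations 0.04, −0.08 and −0.03), and kidneys of other numbers ran from −0.10 to 0.10. With 3 kidneys a group this cannot show whether the animals were paired. The labels do not say that the numbers pair them, and the reported fit has no block. With the replicate block 7397 genes were called, and 5501 with the offset as well; 5 and 3 members were lower, 1 and 4 relay genes higher, 9 relay genes lower in the second, 2 shedding and 4 inhibitor genes lower and 1 inhibitor higher in the second, and 1 ERK response gene lower in the first.

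Leaving out 1 kidney gave 5071 (without Pkd1 KO 2) to 10318 (without control 3) genes called. Members called lower were 3 to 6, and 1 to 4 with the offsets; 1 was higher throughout. Pkd1 stood at −2.09 to −1.57, and with the offsets at −0.54 to −0.36, where its call ended without control 1 and without Pkd1 KO 2 or 3 (−0.47, −0.49 and −0.51, adjusted p 0.0525 to 0.066). The Egf ratio was −0.97 to −0.54, the Egf share −21.3 to −18.4 points and the Egfr share 3.25 (without control 2) to 6.02 points. Shedding genes lower were 2 to 6 and higher 1; relay genes lower 9 to 17 and higher 0 to 3; inhibitors lower 5 to 8 and higher 0 to 1; ERK response genes lower 0 to 6 and higher 0 to 1; further ligands higher 0 to 2 and lower 0. With 3 kidneys a group each omission leaves 2 in 1 group, and among the members counting depth kept only Areg from being tested.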

Other observations

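The other marker lists describe the tissue around the members. Summed markers were 4774 to 5637 CPM in Pkd1 KO and 6899 to 11944 CPM in control kidneys for the proximal tubule, 404 to 501 CPM in Pkd1 KO and 606 to 733 CPM in control kidneys for principal cells, and 191 to 199 CPM in Pkd1 KO and 225 to 284 CPM in control kidneys for intercalated cells. Podocyte markers summed to 140 to 165 CPM in Pkd1 KO and 183 to 318 CPM in control kidneys, and endothelial markers to 221 to 226 CPM in Pkd1 KO and 242 to 284 CPM in control kidneys. These sums did not overlap between the groups, although single markers in them rose: Slc5a12 in the proximal tubule list (log2 fold change 0.62, adjusted p = 0.0277 in edgeR's test), Atp6v1g3 in the intercalated cell list (0.81, adjusted p = 0.0102) and Emcn in the endothelium list (0.58, adjusted p = 0.0181). With the offsets these stood at 0.09, −0.12 and 0.11, and none passed (adjusted p 0.455 to 0.756). Markers called lower were 4 of 7 for the proximal tubule, 5 of 5 tested for principal cells and 3 of 5 for intercalated cells. They were 3 of 4 for podocytes and 3 of 4 for endothelium. In the offset fit the numbers were 5, 3, 3, 1 and 1 in the same order. Of all genes tested 24.2% fell, and 18.1% in the offset fit. The sums of fibroblast and pericyte markers (177 to 254 CPM in Pkd1 KO and 169 to 208 CPM in control kidneys) and of urothelium markers (9.15 to 27.5 CPM in Pkd1 KO and 12.0 to 23.6 CPM in control kidneys) overlapped.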
